A study of Mus musculus with 6 samples.

Results

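Genes of sugar-binding receptors of the C-type lectin superfamily were examined in dendritic cells of mouse bone marrow. They are Cd209a, Cd209b, Cd209c and Cd209d of the CD209 family, Clec10a and Mgl2 of the macrophage galactose-type lectins (MGL), and the mannose receptor gene Mrc1. They were taken by gene symbol, and all 7 were found among the 24421 genes of the table. They had been chosen by their measured normalised counts, which were known to differ between the 2 groups, so for these genes that difference is described and not tested. The groups were 3 wild-type (WT) samples of C57BL/6 mice and 3 TCL samples of the same strain, which came from mice used as an adoptive transfer model of CLL (chronic lymphocytic leukaemia). In such a model leukaemic B cells are transplanted into recipient mice. The sources used here do not give the age and number of the mice, the time after transfer or the dendritic cell markers of the flow cytometry sort, and no label says that the samples came from separate animals. The spread between samples may therefore be partly technical.

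C-type lectin receptors bind sugars on microbes and on self glycoproteins through a calcium-dependent domain and carry the bound cargo into the cell for degradation and presentation. Proteins of the CD209 family, whose human namesake is DC-SIGN, recognise mannose-rich and fucosylated sugars. The MGL proteins recognise galactose and N-acetylgalactosamine, and the mannose receptor recognises mannose, fucose and sulphated sugars. In the mouse, MGL and mannose receptor genes are induced by interleukin 4 (IL-4) in macrophages. Cd209a, Clec10a and Mgl2 are used as markers of type 2 conventional dendritic cells and of dendritic cells that arise from monocytes, and Mrc1 and Cd209b are also carried by resident macrophages, Mrc1 in addition by sinusoidal endothelium.

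The 6 libraries held 17158819 to 25674314 reads counted to genes. Levels are given as the deposited normalised counts, which are reads divided by a size factor of the library, in the order WT libraries 3, 7 and 9 and TCL libraries 4, 8 and 10. The numbers are those of the table's columns. Of 13010 genes tested, 604 (4.64%) passed an adjusted p of 0.05 in edgeR's quasi-likelihood test, 264 higher (2.03%) and 340 lower (2.61%) in TCL. Scaling to library size only turned that balance, with 352 higher and 296 lower, as did leaving out TCL 8, with 475 higher and 429 lower. The total was 904 without TCL 8 and 388 without TCL 10, and 246 to 299 without any 1 of the others. With all libraries, 2910 of the 13010 tested genes had an unadjusted p under 0.05. The dendritic cell integrin gene Itgax (CD11c) had 10231 ± 1759 normalised counts in WT and 11172 ± 3001 in TCL (SD, n = 3), abundant in both groups. Whether the sort used it is not known. The neutrophil genes S100a9 and Ngp were more abundant still, with S100a9 at 166812 to 368393 in WT and 69678 to 179783 in TCL. In RNA from a sorted pool, fewer cells of a type and less RNA per cell cannot be told apart.

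All 7 lectin genes were lower in TCL, and in each of them the highest TCL library lay below the lowest WT library. That pattern was found in 13.6% of all tested genes, and the reverse, with every TCL library above every WT library, in 14.5%. Of tested genes 2.61% were called lower, 2.03% higher and 4.64% in either direction. The log2 fold changes ran from -6.66 to -2.58 with a median of -4.63, beside a median of 0.00 over all tested genes. A log2 fold change as low as the mildest of the 7 was reached by 208 of 13010 tested genes (1.6%). These shares are background for a choice of genes that rested on the same difference, and nothing was tested with them.

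**Figure D1:**
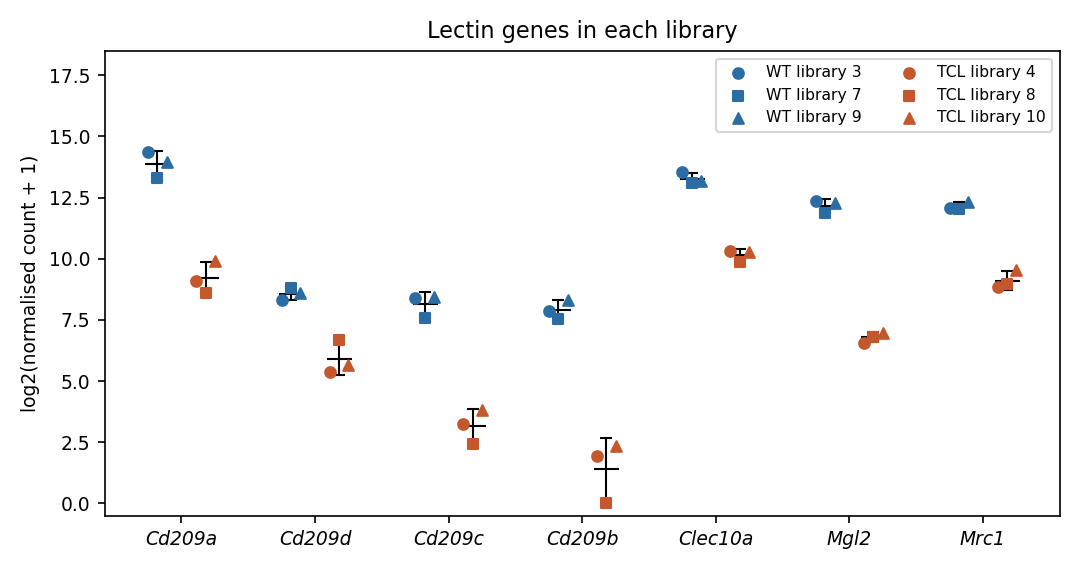
Normalised counts of the 7 lectin genes on a log2(normalised count + 1) axis, with 1 symbol per library (WT blue, TCL orange) and bars for the mean ± SD of the log2 values (n = 3). In every gene all TCL libraries lie below all WT libraries, and the groups are closest in Cd209d and farthest apart in Cd209b.

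The CD209 genes lie together on chromosome 8. In the GENCODE annotation of GRCm38, the assembly that mm10 stands for, Cd209a runs from 3743397 to 3748984, Cd209d from 3871824 to 3878555, Cd209b from 3917655 to 3926844 and Cd209c from 3940222 to 3954746, all on the minus strand and within 211.3 kb.

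Cd209a encodes the mouse receptor most often set beside human DC-SIGN. Its normalised counts were 20928, 10151 and 15659 in WT and 550, 383 and 959 in TCL. WT library 7 was the lowest of its group, and WT libraries differed by 2.06-fold among themselves, TCL libraries by 2.50-fold. The lowest WT library was still 10.6-fold above the highest TCL library. The log2 fold change was -4.63 (SE 0.40).

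Cd209d, also called SIGNR3, had 313, 452 and 386 normalised counts in WT and 40.8, 102.6 and 50.1 in TCL. The high TCL library was library 8, at 116 reads against 43 and 62. This gene fell least of the 7, with a log2 fold change of -2.58 (SE 0.37), and its gap between groups was the narrowest, at 3.05-fold between the lowest WT and the highest TCL library. Without TCL library 8 the log2 fold change was -3.08. WT library 7, the lowest WT library for every other gene of the 7, was the highest for Cd209d.

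Cd209c, also called SIGNR2, had 340.5, 189 and 349 normalised counts in WT and 8.54, 4.42 and 12.9 in TCL, and its log2 fold change was -5.06 (SE 0.45). Cd209b encodes SIGNR1, a receptor of marginal zone macrophages of the spleen that binds bacterial polysaccharides. It had 233, 187 and 317 normalised counts in WT. In TCL it was close to the limit of detection, with 3, 0 and 5 reads, or 2.85, 0 and 4.04 normalised counts. The 0 reads of TCL library 8 lie under the floor of 3 counts. Over pooled reads Cd209c was 34.5-fold lower in TCL at equal depth, with a 95% exact interval from counting error alone of 23.98 to 51.5. Cd209b, whose log2 fold change was -6.66 (SE 0.62), was the lowest of the 7 in TCL, and the exact size of its fall rests on those 8 reads.

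The stretches before the starts of Cd209a, Cd209b and Cd209d are shown because they share short runs of letters. The sequences are RefSeq promoter windows of 250 bases before to 50 after the gene start on GRCm38.p6, minus strand, at chr8:3748935-3749234, chr8:3926792-3927091 and chr8:3878450-3878749. Capitals mark the longest exact run that each pair of windows shares.
Cd209a: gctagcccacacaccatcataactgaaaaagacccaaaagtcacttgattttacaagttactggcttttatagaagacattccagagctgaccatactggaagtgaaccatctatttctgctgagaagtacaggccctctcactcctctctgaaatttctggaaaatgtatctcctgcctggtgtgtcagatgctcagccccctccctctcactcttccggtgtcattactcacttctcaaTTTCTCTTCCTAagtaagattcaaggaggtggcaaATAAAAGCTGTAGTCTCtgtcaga
Cd209b: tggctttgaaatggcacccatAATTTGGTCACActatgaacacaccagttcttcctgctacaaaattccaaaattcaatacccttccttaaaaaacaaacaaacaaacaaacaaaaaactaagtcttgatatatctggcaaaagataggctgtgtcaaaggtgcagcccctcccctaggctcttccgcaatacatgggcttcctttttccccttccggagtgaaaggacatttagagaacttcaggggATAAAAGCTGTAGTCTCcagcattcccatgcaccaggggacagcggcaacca
Cd209d: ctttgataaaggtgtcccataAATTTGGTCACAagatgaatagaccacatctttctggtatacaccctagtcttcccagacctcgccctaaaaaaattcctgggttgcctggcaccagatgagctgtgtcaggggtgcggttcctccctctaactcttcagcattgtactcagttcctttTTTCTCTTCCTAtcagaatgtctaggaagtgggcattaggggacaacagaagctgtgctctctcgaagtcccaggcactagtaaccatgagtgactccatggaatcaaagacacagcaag
Cd209a and Cd209b share the 17 bases ATAAAAGCTGTAGTCTC, which begin at position 27 after the start of Cd209a and at position -2 of Cd209b, and which no other of 32851 windows held on either strand, the count being 2. Cd209a and Cd209d share the 12 bases TTTCTCTTCCTA, from position -9 and position -70, found in 9 windows. Cd209b and Cd209d share the 12 bases AATTTGGTCACA at the same position of -229 in both, found in 3 windows. Shared runs did not go along with the difference between groups. The window of Cd209c, also lower in TCL, shared runs of 8, 8 and 7 bases with those of Cd209a, Cd209b and Cd209d. That of Cd209e, a gene too low to be tested, shared 14, 12 and 12 bases with them. The runs were picked after the sequences were seen and are a description of likeness between copies of a gene family.

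Windows were found for 6 of the 7 genes, and none was found for Clec10a. Letters linked to 5 kinds of transcription factor were searched on both strands. The STAT6 letters, TTC and GAA with 4 bases of any kind between them, stand in 6.95% of all windows and were in 0 of the 6. The same held for GAAA repeated after 2 bases, the letters of the interferon response (3.44% of all windows), and for TGANTCA of AP-1 (7.81%). The short KLF letters CACCC, present in 57.5% of all windows, were in 4 of the 6, those of Cd209b, Cd209c, Cd209d and Mgl2. The PU.1 letters GAGGAAG, present in 13.6% of all windows, were in Mrc1 alone of the 6, at 2 places. No window held matches to more than 1 of these motifs, so none overlapped. The window of Mrc1, at chr2:14229164-14229463 on the plus strand, is given with both matches in capitals, read on the opposite strand as CTTCCTC, from positions -168 and -36.
Mrc1: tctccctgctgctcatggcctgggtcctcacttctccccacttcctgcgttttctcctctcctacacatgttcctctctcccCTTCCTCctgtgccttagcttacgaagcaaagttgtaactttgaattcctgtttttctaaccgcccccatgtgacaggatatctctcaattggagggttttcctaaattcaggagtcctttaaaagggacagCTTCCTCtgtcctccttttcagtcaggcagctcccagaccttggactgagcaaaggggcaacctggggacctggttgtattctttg
These matches describe letters and not binding.

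A further 3 CD209 genes had rows in the table, and 2 of them had enough reads to be tested. Cd209f, at 4102787 to 4105835 of chromosome 8, had 81.6, 109 and 155 normalised counts in WT and 3.79, 0 and 5.66 in TCL. It was called lower (log2 fold change -5.13, SE 0.76, adjusted p 0.00725). Cd209g, at 4134098 to 4137707, had 14, 40 and 40 reads in WT and 0 in every TCL library. At equal depth it was at least 40.2-fold lower, against a floor of 3 counts over the TCL group (adjusted p 0.0168), and it was not called without WT library 9 or TCL library 4, which left 1 of the 2 genes called. Under a filter of 5 CPM in 3 libraries neither Cd209f nor Cd209g had enough reads to be tested, so 0 were called. Cd209e, with 21, 1 and 59 reads in WT and 6, 2 and 7 in TCL, was too low to be tested, and its groups overlapped through WT library 7. Of the GENCODE transcript sequence of Cd209f, 29.8% of the runs of 50 bases also occurred in another gene, Cd209g. For Cd209g the share was 16.6%, so the reads of this pair cannot be fully told apart. For Cd209a, Cd209b, Cd209d and Mrc1 the share was 0%. For Cd209c it was 15.7%, and the gene that held most of these runs was the pseudogene Olfr1372-ps1 (126 of 336). Summing the reads of all CD209 genes gave a log2 fold change of -4.55 (SE 0.36). Of the counts of Cd209a, Cd209b, Cd209c and Cd209d together, Cd209a held 92.5% to 95.9% in WT libraries and 78.2% to 93.5% in TCL libraries. The sum therefore mostly follows Cd209a and says little about the genes with shared runs.

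**Figure D2:**
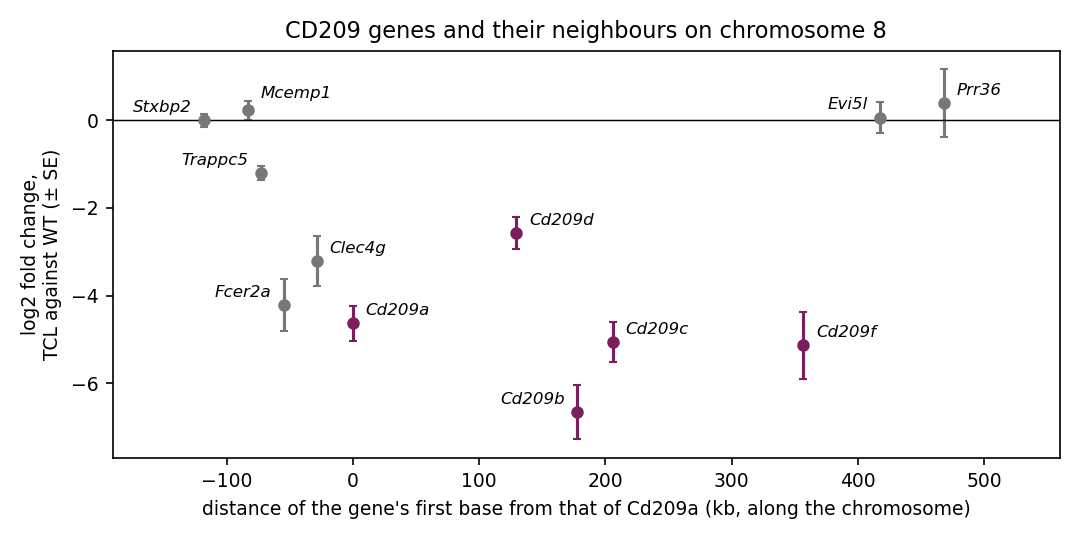
Log2 fold change of TCL against WT with its standard error for tested CD209 genes (purple) and tested neighbours (grey) by the distance of each gene's first base from that of Cd209a, in kb. CD209 genes lie between -6.66 and -2.58, and Stxbp2, Mcemp1, Evi5l and Prr36 at the outer ends lie between -0.01 and 0.39. Clec4g, Fcer2a and Trappc5, the tested neighbours nearest to Cd209a, lie at -3.21, -4.22 and -1.20. Cd209g, with 0 reads in TCL, is left out.

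Clec10a and Mgl2 lie next to each other on chromosome 11, Mgl2 from 70130329 to 70137550 and Clec10a from 70156197 to 70170834 (GRCm38), both on the plus strand and 18.65 kb apart. Clec10a encodes MGL1. Its normalised counts were 11885, 8819 and 9218 in WT and 1270, 940 and 1241 in TCL. Libraries within a group differed by 1.35-fold in WT and in TCL, and the log2 fold change was -3.13 (SE 0.20). Mgl2, which encodes MGL2, had 5293, 3748 and 4912 normalised counts in WT and 93.9, 111 and 125 in TCL, with a log2 fold change of -5.41 (SE 0.21). Its lowest WT library was 30.1-fold above its highest TCL library.

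The 2 neighbours did not fall by the same factor. Clec10a had 1.88 to 2.35 times the counts of Mgl2 within each WT library and 8.43 to 13.5 times within each TCL library, ranges that did not overlap. By transcript sequence the pair is partly alike, since 9.02% of the runs of 50 bases of Clec10a and 13.1% of those of Mgl2 also occur in another gene, in nearly all cases in the partner (270 runs). The sources used here do not give how such reads were counted.

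Mrc1 encodes the mannose receptor, an endocytic receptor with a long extracellular part of repeated lectin domains. It spans 102.7 kb of chromosome 2, from 14229392 to 14332057 on the plus strand (GRCm38). Its normalised counts were 4276, 4206 and 5157 in WT and 454, 497 and 742 in TCL. WT libraries agreed within 1.23-fold, the narrowest spread of the 7 genes in that group. The log2 fold change was -3.02 (SE 0.22). Mrc1 and Clec10a kept similar proportions in both groups: Mrc1 had 0.360 to 0.559 times the counts of Clec10a in WT libraries and 0.358 to 0.597 times in TCL libraries, ranges that overlapped.

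Other genes of the mannose receptor family did not pass the test in this contrast. Mrc2, which encodes the collagen-binding receptor Endo180, had 52.0, 23.7 and 54.1 normalised counts in WT and 144, 21.2 and 63.1 in TCL (log2 fold change 0.80, SE 0.66, adjusted p 0.501). Ly75, which encodes the dendritic cell receptor DEC-205, had 116, 51.3 and 111 in WT and 185, 147 and 412 in TCL (log2 fold change 1.41, SE 0.45, adjusted p 0.111). The groups of Mrc2 overlapped, and those of Ly75 did not, which with TCL higher held for 14.5% of all tested genes. Of 2 tested genes 0 were called with edgeR, 1 was higher at an unadjusted p under 0.05, and DESeq2 and the fit without TCL 8 each called 1 higher. The third gene of the list, Pla2r1, had too few reads to be tested.

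Within the summed counts of the 7 genes the make-up shifted as well as the amount. The sum was 43269, 27752 and 35999 normalised counts in WT and 2420, 2039 and 3134 in TCL, which is 0.123% to 0.190% of all counted reads in WT and 0.0101% to 0.0151% in TCL. Cd209a held 36.6% to 48.4% of the sum in WT libraries and 18.8% to 30.6% in TCL libraries. Mgl2 held 12.2% to 13.6% in WT and 3.88% to 5.47% in TCL. Clec10a and Mrc1 took the larger part in TCL, with Clec10a at 25.6% to 31.8% in WT against 39.6% to 52.5% in TCL, and Mrc1 at 9.88% to 15.2% against 18.8% to 24.4%. None of these 4 pairs of ranges overlapped. The shares are parts of the same sum, so smaller shares of some genes raise those of others, and the 4 are not separate results. The share of Cd209d was 5.03% in TCL library 8 and at most 1.68% in every other TCL library.

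**Figure D3:**
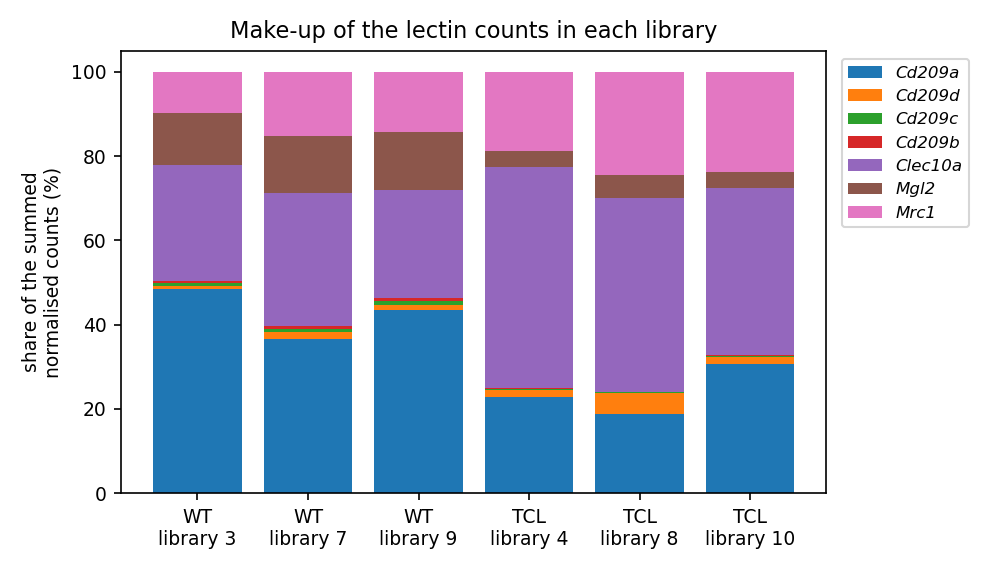
Share of each lectin gene in the summed normalised counts of the 7 genes, in percent, with 1 bar per library. Cd209a is the largest part in each WT library and Clec10a in each TCL library, and the part of Mgl2 is smaller in every TCL library than in any WT library.

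Levels of different genes were compared per kb of exon, as counts per 1e6 reads of the effective library size (CPM) per kb. On this scale Cd209a led in WT with 457 ± 157, followed by Clec10a with 160 ± 26.7, Mgl2 with 103 ± 17.6, Mrc1 with 33.1 ± 3.68 and Cd209d with 19.4 ± 3.56 (SD, n = 3). Cd209c and Cd209b, at 6.80 ± 2.06 and 5.38 ± 1.42, did not differ beyond their spread. In TCL Cd209a at 18.4 ± 8.71 and Clec10a at 18.3 ± 2.90 did not differ beyond their spread either, nor did Mrc1 at 4.09 ± 1.14 and Cd209d at 3.24 ± 1.67. Mgl2, at 2.42 ± 0.349, also lay within the spread of Cd209d, and Cd209c and Cd209b had 0.199 ± 0.0990 and 0.0501 ± 0.0454. Among 12538 tested genes with a length, Cd209a ranked 89 in WT and 2750 in TCL by this level. Clec10a ranked 298 and 2762, and Mgl2 485 and 8367, so in TCL Mgl2 had moved to the lower part of the order and Clec10a had not.

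In WT library 7 and TCL libraries 8 and 10, Cd209d deviated from its group mean in the opposite direction to most or all other members. In WT library 7 the others lay below their group means on the log2(CPM + 1) scale, and Cd209d was 0.25 above. The others ran there from 0.55 below for Cd209a to 0.098 below for Mrc1. In TCL library 8 Cd209a was 0.59 below its group mean and Cd209d 0.60 above. The others were also below there, except Mgl2 at 0.02 above. In TCL library 10 the others were above, from 0.69 for Cd209a to 0.11 for Cd209b, and Cd209d was 0.19 below. In WT libraries 3 and 9 and TCL library 4 the members went in both directions.

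Genes whose levels followed the 7 lectins most closely over the 6 libraries were Tnni2, Meaf6, Cmtm3, Neo1, Trf, Tnfrsf11a, Engase and Ccl22, out of 10102 genes compared. The measure was Pearson's r between log2(CPM + 1) and the mean of the standardised lectin values, and it ran from 0.9972 for Tnni2 to 0.9889 for Ccl22 (n = 6 libraries). The 6 points share their libraries and fall into 2 separate groups, so r is a description only. It does not measure the size of a change. The log2 fold changes of the 8 genes ran from -3.98 for Ccl22 to -0.47 for Meaf6, which was not called (SE 0.14, adjusted p 0.0918). With any library left out r was at least 0.9864, and by Spearman's rho the same 8 genes had 0.7714 to 1. Trf, which encodes the iron carrier transferrin, had 10508, 9871 and 13181 normalised counts in WT and 2144, 1635 and 2453 in TCL. Tnfrsf11a, which encodes RANK, had 680, 638 and 727 in WT and 376, 413 and 427 in TCL. Taken alone, Mrc1 was nearest to the receptor tyrosine kinase gene Axl (r = 0.9935) and Cd209d to the ficolin gene Fcna (r = 0.9969). Cd209b, Cd209c and Clec10a were each nearest to Meaf6 (r = 0.9953, 0.9958 and 0.9977). Mgl2 was nearest to Tnni2 (r = 0.9967) and Cd209a to Rnf150 (r = 0.9961).

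Other C-type lectins that bind galactose or mannose, or lie in neighbouring lectin clusters, moved in both directions. Of 13 tested genes of 16 in this list, 4 fell, 1 rose and 8 did not pass, with a median log2 fold change of -0.34. Asgr2, a subunit of the asialoglycoprotein receptor, lies near Mgl2 and had 255, 246 and 235 normalised counts in WT and 38.9, 25.7 and 61.5 in TCL (log2 fold change -2.55, SE 0.35, adjusted p 0.0056). Fcer2a, the low-affinity IgE receptor CD23 that B cells carry, changed by -4.22 (log2, SE 0.59, adjusted p 0.00562) and Clec4g by -3.21 (SE 0.57, adjusted p 0.0152), and both lie beside Cd209a. Clec4b1, named as the remaining call, had 2919, 1861 and 1734 in WT and 289, 1087 and 404 in TCL (adjusted p 0.0439). Clec4e, the Mincle gene, rose from 620 ± 91.6 to 1732 ± 289 normalised counts (log2 fold change 1.47, SE 0.18, adjusted p 0.00293). Clec4a1 and Clec4a3, the most abundant genes of the list, did not pass, with log2 fold changes of 0.26 (SE 0.16, adjusted p 0.367) and 0.26 (SE 0.22, adjusted p 0.514). Leaving out WT 3 left 2 that fell, without Clec4g, as did a filter of 5 CPM in 3 libraries. With DESeq2, or with scaling to library size only, 2 rose.

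The IL-4 and IL-13 pathway was examined because it induces MGL and mannose receptor genes in mouse macrophages. Of 12 tested genes of receptor signalling 2 rose, 0 fell (0 also in DESeq2) and 10 did not pass. At an unadjusted p under 0.05, 7 were higher and 0 lower, and the median log2 fold change was 0.55. The receptor chain gene Il4ra had 2685, 1679 and 2396 normalised counts in WT and 3956, 4532 and 4506 in TCL (log2 fold change 0.93, SE 0.19, adjusted p 0.0261). Its groups did not overlap, which with TCL higher held for 14.5% of all tested genes. Jak3, a kinase of the receptor complex, changed by 0.97 (log2, SE 0.17, adjusted p 0.0129). Il2rg and Ptpn6 did not pass, with log2 fold changes of 0.51 (SE 0.22, adjusted p 0.209) and 0.15 (SE 0.15, adjusted p 0.602). Stat6, the transcription factor of this pathway, named for its role after its value was seen, had 4887 ± 142 in WT and 6103 ± 1307 in TCL (adjusted p 0.328). Leaving out WT 3, WT 7, WT 9 or TCL 10 left 1 that rose, leaving out TCL 4 left 0, and leaving out TCL 8 gave 4.

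Among 19 tested genes that IL-4 is known to induce in mouse myeloid cells 4 fell, 2 rose and 13 did not pass, with a median log2 fold change of -0.30. Those that fell were the chemokine genes Ccl22, Ccl17 and Ccl24 and the growth factor gene Igf1. Ccl22 had 841, 781 and 1181 normalised counts in WT and 57.8, 31.9 and 88.2 in TCL (log2 fold change -3.98, SE 0.36, adjusted p 0.000888). Igf1 changed by -2.60 (log2, SE 0.29, adjusted p 0.00215) and Ccl24 by -2.80 (SE 0.49, adjusted p 0.0139). Tgm2, which encodes a transglutaminase, had 1855, 920 and 1785 in WT and 7114, 5119 and 8515 in TCL (log2 fold change 2.18, SE 0.29, adjusted p 0.00404). The histone demethylase gene Kdm6b changed by 0.65 (log2, SE 0.15, adjusted p 0.0428). Chil3, the most abundant gene of the list, did not pass (log2 fold change -0.37, SE 0.32, adjusted p 0.526). Leaving out TCL 8 gave 5 that rose, and leaving out any other library left 1. Leaving out WT 9 left 2 that fell, without Ccl17 and Ccl24. The filter of 5 CPM in 3 libraries left 2 that fell and 1 that rose, and in DESeq2 4 rose.

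The next list held 12 genes that specify type 2 conventional dendritic cells, transcription factors with the receptor gene Notch2 added. Of these, 2 fell and 0 rose (2 were higher at an unadjusted p under 0.05, 0 in DESeq2), and the median log2 fold change was 0.12. Irf4, a factor these cells need, had 1441, 1334 and 1769 normalised counts in WT and 747, 337 and 793 in TCL (log2 fold change -1.28, SE 0.29, adjusted p 0.0403). Rbpj, the nuclear partner of Notch receptors, changed by -0.90 (log2, SE 0.17, adjusted p 0.0213). Notch2 and Spi1 did not pass, with log2 fold changes of 0.14 (adjusted p 0.725) and 0.07 (adjusted p 0.844). None fell (0) once WT 3, WT 9 or TCL 4 was left out, and leaving out WT 7 or TCL 10 left 1. Leaving out TCL 8 gave 2 that rose.

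Of 18 other markers of this subset, the lectins aside, 2 fell and 0 rose, with a median log2 fold change of -0.05. At an unadjusted p under 0.05, 2 were higher and 5 lower. Ccr2, the chemokine receptor gene of monocytes and of part of these cells, changed by -0.90 (log2, SE 0.20, adjusted p 0.0348), and Cd1d1 by -0.91 (SE 0.21, adjusted p 0.0428). Sirpa and Clec12a, both carried by this subset, had log2 fold changes of 0.47 (SE 0.18, adjusted p 0.159) and -0.62 (SE 0.17, adjusted p 0.079). The summed level of the list was 105142 to 117577 normalised counts in WT and 92485 to 120289 in TCL, ranges that overlapped, and no marker was at 0. Without WT 3 or WT 7 the number that fell was 1, and without WT 9, TCL 4 or TCL 10 it was 0. Leaving out WT 7 or TCL 8 gave 1 that rose. With scaling to library size only 1 fell, and in DESeq2 5 fell and 1 rose.

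Markers of other cells that carry these lectins also differed between the groups. Of 16 resident macrophage markers 5 fell, 1 rose and 10 did not pass, and the summed level went from 123235 to 137740 normalised counts in WT to 41022 to 96807 in TCL, without overlap and with no marker at 0. Cd163, the haemoglobin scavenger receptor gene, had 486, 347 and 474 normalised counts in WT and 68.3, 55.7 and 38.0 in TCL (log2 fold change -3.02, SE 0.29, adjusted p 0.00108). The log2 fold changes of Axl, Vcam1 and the iron exporter gene Slc40a1 were -1.45 (SE 0.18, adjusted p 0.00281), -1.32 (SE 0.18, adjusted p 0.00474) and -1.14 (SE 0.17, adjusted p 0.00725). Adgre1 (F4/80), the fifth to fall, and Spic, which rose, are named to complete the calls, with log2 fold changes of -1.03 (adjusted p 0.0107) and 0.67 (adjusted p 0.0259). The complement genes C1qa and C1qb, the most abundant of the list, did not pass, with log2 fold changes of -1.56 (SE 0.39, adjusted p 0.0534) and -1.02 (SE 0.36, adjusted p 0.141). Leaving out TCL 8 gave 8 that fell, as did DESeq2, and leaving out WT 3, WT 7 or WT 9 left 0 that rose. The part of this shift in the fall of the lectins was not tested.

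Of 14 endothelial markers 8 fell, 1 rose and 5 did not pass. Stab2 and Flt4, which mark sinusoidal endothelium, had log2 fold changes of -3.18 (SE 0.39, adjusted p 0.00278) and -3.27 (SE 0.49, adjusted p 0.00721). Mmrn2 and Ramp2, at 0 to 4 and 1 to 7 reads in TCL libraries, had log2 fold changes of -7.26 (SE 0.66, adjusted p 0.000888) and -5.17 (SE 0.75, adjusted p 0.00647). Pecam1, which leukocytes also carry, changed by 1.20 (log2, SE 0.18, adjusted p 0.00725). With 3658 to 5651 normalised counts it made up most of the list's sum in TCL. That sum was 4965 to 6365 normalised counts in WT and 5595 to 7581 in TCL. Leaving out WT 9 or TCL 4 left 5 that fell, and the filter of 5 CPM in 3 libraries left 3. Of 10 tested stromal markers 7 fell, 0 rose and 3 did not pass, and their sum went from 2232 to 8074 in WT to 148 to 331 in TCL, with WT library 7 highest for Cxcl12, Lepr, Col1a2, Bgn and Ibsp. Cxcl12 had 1340, 4763 and 2727 normalised counts in WT and 24.7, 145 and 84.1 in TCL, and Grem1 had 0 reads in all libraries. With the filter of 5 CPM in 3 libraries 3 fell. Of the lectins, Cd209d was also highest in WT library 7, and Cd209a, Cd209b, Cd209c, Clec10a, Mgl2 and Mrc1 were lowest there. Being highest in that library was not particular to stromal markers. Among WT libraries it also held for the neutrophil genes S100a9 and Ngp and the B cell gene Cd79a. It did not hold for the neutrophil gene Cxcr2 or the B cell gene Cd22. The part of endothelial and stromal cells in the fall of the lectins was not tested.

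The remaining lists of marrow cells were measured in the same way. Of 14 monocyte markers 2 rose, Spn by 1.33 (log2, SE 0.20, adjusted p 0.0075) and Treml4 by 1.19 (SE 0.27, adjusted p 0.0408), and 1 fell, Ccr2. The abundant Csf1r and Chil3 did not pass, with log2 fold changes of 0.61 (SE 0.25, adjusted p 0.197) and -0.37 (SE 0.32, adjusted p 0.526). The sum of the monocyte markers was 124047 to 140860 normalised counts in WT and 142207 to 184116 in TCL. Leaving out WT 3, WT 7, WT 9 or TCL 4 left 1 monocyte marker that rose, as did limma-trend at a pseudocount of 0.5, while leaving out TCL 8 gave 5 and DESeq2 4. Leaving out WT 3, WT 9, TCL 4 or TCL 10 left 0 that fell, and leaving out TCL 8 gave 2. Of 12 type 1 dendritic cell markers 3 fell, Cd36, Clec9a and Batf3, and 0 rose, while in DESeq2 4 fell and 1 rose. Irf8 and Naaa, the most abundant of the list, did not pass. Their log2 fold changes were 0.05 (SE 0.17, adjusted p 0.889) and -0.44 (SE 0.18, adjusted p 0.189). At an unadjusted p under 0.05, 7 were lower and 1 higher. Leaving out WT 3 left 1 that fell, and leaving out TCL 10 gave 5. Of 12 B cell markers 6 fell and 0 rose (0 also in DESeq2). At an unadjusted p under 0.05, 10 were lower and 0 higher. Cd79a had 1528, 4362 and 3296 normalised counts in WT and 1099, 943 and 750 in TCL. The abundant Cd79b and Fcrla did not pass, with log2 fold changes of -0.57 (SE 0.27, adjusted p 0.249) and -0.94 (SE 0.38, adjusted p 0.19). The sum of the B cell markers was 8252 to 20229 in WT and 4985 to 7195 in TCL. Leaving out WT 7, WT 9, TCL 4 or TCL 10 left 1 B cell marker that fell. Of 11 neutrophil markers 0 passed in edgeR, with 4 lower at an unadjusted p under 0.05 and 2 lower in DESeq2. Of 10 plasmacytoid markers 0 passed, with 3 higher and 1 lower at an unadjusted p under 0.05. Over all 13010 tested genes, 2910 had an unadjusted p under 0.05. In DESeq2, and with scaling to library size only, 2 plasmacytoid markers were higher. The part of these cells in the fall of the lectins was not tested.

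**Figure D4:**
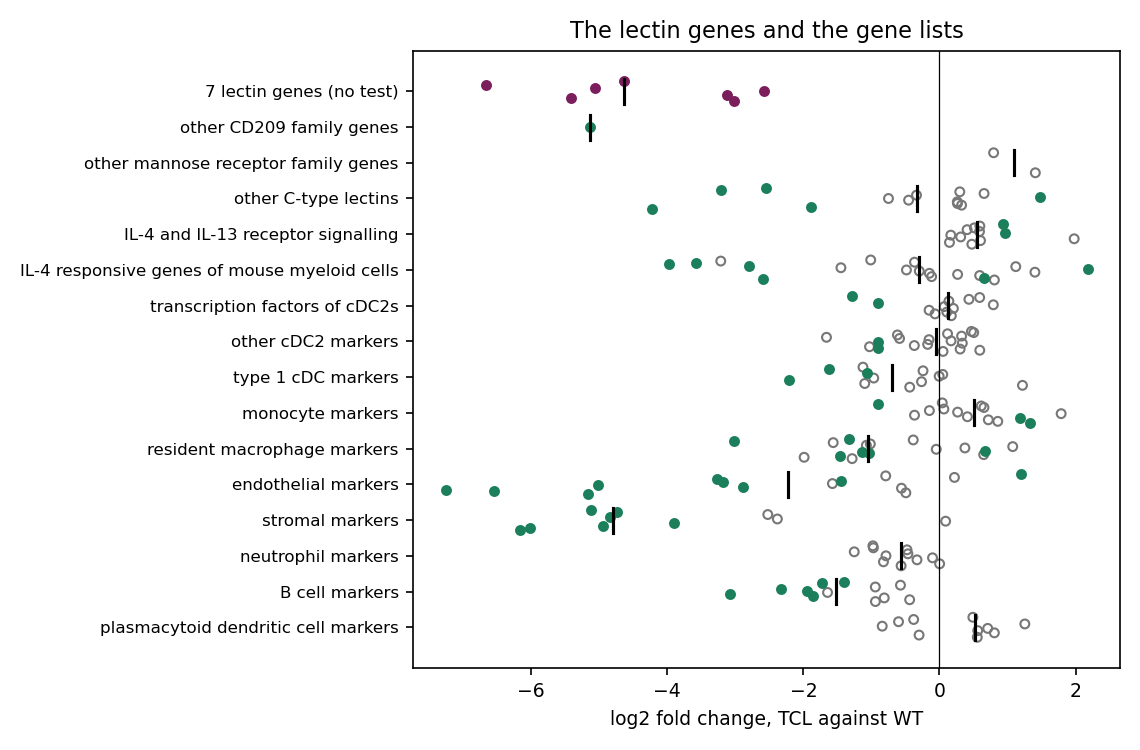
Log2 fold change of TCL against WT of the 7 lectin genes (purple, not tested) and of tested genes of each list, filled green where the adjusted p was under 0.05 and open where it was not, with the median of each row as a black bar. The lectins have a median of -4.63, and the IL-4 and IL-13 receptor signalling genes a median of 0.55. cDC stands for conventional dendritic cells and cDC2 for their type 2 subset, and genes with 0 reads in a group are left out.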

How the data were processed

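Poly(A) RNA of sorted bone marrow dendritic cells was sequenced, per the labels' protocols. Cutadapt, STAR 2.4.2a, HTSeq, DESeq2 and the build mm10 appear, per the submitters' processing notes, with no steps assigned, and the sources used here do not give the strand setting or annotation. The authors deposited a normalised signal per gene and library, with their own log2 fold change, p-value and adjusted p-value, which are printed only where named as such. The normalised values were whole reads divided by a size factor: divided by the lowest value of their library, 100% came out whole within a tolerance of 0.001, and these reads were used. Columns carry a group and a running number, and were used as libraries of that group.

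Reads were filtered with filterByExpr, scaled with TMM factors and tested with edgeR 4.0.16 (R 4.3.3), quasi-likelihood with robust moderation, Benjamini-Hochberg adjustment over 13010 genes and a threshold of 0.05. On the deposited values, limma-trend on log2(value + 1) called 588 genes against 604. A standard error is the size of the log2 fold change over the square root of the F statistic. The procedure was checked on counts simulated from its own fitted dispersions. The changes set there were smaller than those of the lectins, so the check does not cover changes of their size. Exonic lengths and positions are from GENCODE M21. Intervals (95%) and floors cover counting error only. The genes examined and the 15 gene lists were chosen with earlier results of these data known. Named genes of a list are up to 4 called genes with the smallest p and up to 2 of the highest level, and others are marked. Protein sequences were not analysed here. Alternatives were other scalings, filters, pseudocounts, DESeq2 1.42.0, limma 3.58.1, and each library left out. The fit without robust moderation, and the search for shared transcript runs and promoter runs, were added after the data were seen.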

Additional observations from a re-analysis of the deposited data

How the results depend on the processing

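All 7 lectin genes were lower in TCL in each of the 14 alternatives tried for each gene, 98 values in all. With each library left out in turn, the log2 fold change ran from -5.06 to -4.36 for Cd209a, -7.35 to -6.10 for Cd209b, -5.48 to -4.75 for Cd209c, -3.08 to -2.33 for Cd209d, -3.20 to -2.98 for Clec10a, -5.54 to -5.30 for Mgl2 and -3.25 to -2.88 for Mrc1. Cd209b moved by more than the spread between replicates also in limma-trend at a pseudocount of 0.5 (-6.93), where its low reads weigh most. The number of genes called, 604, was 246 to 904 with each library left out, with 98 to 475 higher and 130 to 429 lower. DESeq2 called 1446, 700 higher and 746 lower, and the filter of 5 CPM in 3 libraries left 208 lower among fewer genes tested. With scaling to library size only 54.3% of calls were higher, against 43.7%. Of 52 list genes called, 25 were called in every alternative that gave a value. On the forward strand only, CACCC was in 3 of the 6 windows and GAGGAAG in 0. The cause of these changes was not tested. Precision is limited in TCL by the 8 reads of Cd209b and the 30 of Cd209c. No paired analysis was possible because the columns carry running numbers and not the replicate numbers of the labels.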

Other observations

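The genes around the CD209 cluster, taken by position within 100 kb after the data were seen and given as values, differed among themselves. Stxbp2, a regulator of granule release, had 5650 ± 675 normalised counts in WT and 5655 ± 552 in TCL (SD, n = 3), and Mcemp1 had 4205 ± 773 and 4939 ± 1473. Trappc5, a subunit of a vesicle tethering complex, had 2657 ± 297 and 1161 ± 138, without overlap of the groups. On the far side, Evi5l had 86.5 ± 13.2 and 90.2 ± 27.0. Around Clec10a and Mgl2, the asialoglycoprotein receptor gene Asgr1 had 0 reads in all libraries, while its partner Asgr2 is described above. The lipoxygenase gene Alox12 had 36.5 ± 11.8 normalised counts in WT and 7.54 ± 1.20 in TCL. Rnasek had 4859 ± 1103 and 3714 ± 739. Beside Mrc1, Stam had 462 ± 115 and 472 ± 58.2, and the microRNA gene Mir511, which lies within Mrc1, had 0 reads in all libraries of this poly(A) RNA. In the authors' deposited table the log2 fold changes of Cd209a, Mgl2 and Mrc1 are -4.63, -5.40 and -3.01.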
